A study of Mus musculus with 17 samples.

Results

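The 10 genes described here encode the machinery that decides whether a cell passes from G1 into S phase: the D cyclins Ccnd1 and Ccnd3, the kinases Cdk4 and Cdk6, the CDK inhibitors Cdkn1b, Cdkn1c, Cdkn2b, Cdkn2c and Cdkn2d, and the retinoblastoma gene Rb1. They were taken by symbol from the raw count tables, and all 10 were found among the 26029 genes listed for model 1 and among the 24659 listed for model 2. The libraries came from erythroid blasts of mice that all carried a Spi1 transgene, which encodes the transcription factor SPI1 (PU.1), and the blasts of every group were kept in culture with erythropoietin (EPO). RNA-seq had been made from 17 mice by their labels, with 1 library per mouse. In model 1 (strain DBA2JxFVB/N), the 3 groups were TgSpi1FA+/+ preleukaemic mice (libraries titled preleukemic_138, preleukemic_445, preleukemic_451 and preleukemic_479), TgSpi1FA-/- preleukaemic mice (preleukemic_40, preleukemic_77 and preleukemic_224), in which Fanca is deleted, and TgSpi1FA-/- leukaemic mice (leukemic_26, leukemic_28 and leukemic_39). In model 2 (strain DBA2J), TgSpi1FA+/+ preleukaemic mice (preleukemic_633, preleukemic_663, preleukemic_812 and preleukemic_837) were compared with TgSpi1FA+/+ leukaemic mice (leukemic_601, leukemic_606 and leukemic_921), whose leukaemia had emerged after repeated blood transfusion of preleukaemic animals. Preleukaemic blasts required EPO and did not form tumours, whereas leukaemic blasts were EPO-independent and tumorigenic. The paper reports a Kit mutation in the mouse of leukemic_26 and an Nras mutation in those of leukemic_28 and leukemic_39. For the leukaemia of model 2 it names Kit mutations. Ages were not given in the sources used here. The Fanca deletion came from FVB/N and the transgene from DBA2/J, and the libraries of each model followed a protocol of their own, so that model, strain and library protocol cannot be told apart.

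D cyclins rise when growth factors reach a cell. They bind CDK4 or CDK6, and the active kinases phosphorylate RB, which then releases E2F transcription factors and allows the genes of DNA synthesis to be expressed. The INK4 inhibitors (Cdkn2b, Cdkn2c and Cdkn2d, encoding p15, p18 and p19) bind CDK4 and CDK6 and keep cyclins away, and the CIP/KIP inhibitors (Cdkn1b and Cdkn1c, encoding p27 and p57) bind complexes of cyclin and kinase. In erythroid cells, cyclin D3, CDK6 and RB are known for tying the number of divisions to terminal differentiation. All of these proteins are also controlled by phosphorylation and degradation, which RNA does not show.

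Total counts ranged from 29964576 to 38217654 per library in model 1 and from 37726753 to 40514205 in model 2. In model 1 every leukaemic library (36036450 to 38217654) was deeper than every preleukaemic one (29964576 to 34846037), so that stage and depth go together there. Levels are given as CPM, the counts scaled to a common library size with TMM factors, separately for each model, so that levels set side by side across models are not on a common scale. Fanca had 28.2 to 83.5 CPM in the TgSpi1FA+/+ mice of model 1, 0.615 to 2.30 CPM in TgSpi1FA-/- preleukaemic and 0.959 to 1.67 CPM in TgSpi1FA-/- leukaemic mice, which follows the genotype labels. The titles of preleukemic_40, preleukemic_77 and preleukemic_224 call them preleukaemic, which is used here, whereas another label and the column names call them leukaemic. The counts of preleukemic_445 and preleukemic_479 differed far less than those of other mice of model 1. Chi-square divided by its degrees of freedom was 8.53 for that pair and 114 to 372 for the remaining pairs within a group of model 1. Pairs of model 2 were not compared in this way. The labels give them as separate mice, and they were counted as 2 of the 4 TgSpi1FA+/+ preleukaemic mice of model 1; whether they are 2 mice was not tested, and tests against this group were repeated with both summed. The 10 erythroid markers summed to 2197 to 4537 CPM in TgSpi1FA-/- leukaemic mice, below the 5021 to 5532 CPM of TgSpi1FA-/- preleukaemic and the 4888 to 8447 CPM of TgSpi1FA+/+ preleukaemic mice. In model 2 these sums overlapped (5306 to 10608 CPM in preleukaemic, 3303 to 5815 CPM in leukaemic mice). The 5 megakaryocyte markers summed to 164 to 252 CPM in TgSpi1FA-/- leukaemic mice, against 31.3 to 39.4 CPM in TgSpi1FA-/- preleukaemic and 45.4 to 191 CPM in TgSpi1FA+/+ preleukaemic mice. Of these, Itga2b had 92.8 to 243 CPM in TgSpi1FA-/- leukaemic mice. It had 16.1 to 21.8 CPM in TgSpi1FA-/- preleukaemic and 29.7 to 55.97 CPM in TgSpi1FA+/+ preleukaemic mice. Pf4 overlapped between these groups. Gp9, Gp1bb and Vwf were at or below 4.09 CPM in each, although Vwf was higher in TgSpi1FA-/- leukaemic than in TgSpi1FA-/- preleukaemic mice. In model 2, 4 of these 5 markers were listed, with sums of 23.1 to 73.7 CPM in preleukaemic and 8.66 to 109 CPM in leukaemic mice. The 5 mast cell markers summed to 63.7 to 72.1 CPM in the leukaemic mice of model 2 against 2.57 to 55.8 CPM in the preleukaemic ones, and stayed at or below 15.9 CPM in model 1. Endothelial and stromal markers (4 genes, 3 of them listed in model 2) reached 274 CPM in 1 TgSpi1FA-/- preleukaemic library and were at or below 53.0 CPM in every other group. Nearly all of this was Col1a2, with up to 273 CPM in TgSpi1FA-/- preleukaemic mice. Pecam1, Cdh5 and Col1a1 were at or below 1.10 CPM in that group. Myeloid markers (6 of 7 listed in model 1 and 4 in model 2) summed to 1.97 to 10.1 CPM, and the T and B cell markers listed were at or below 0.222 CPM. The part of these markers in the results was not tested.

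RefSeq (GRCm38.p6) held 9 promoters, from 250 bases before to 50 bases after a start, for 7 of the 10 genes. None was held for Ccnd1, Cdkn1c or Rb1. The promoters of Ccnd3, Cdk6 and Cdk4 are shown, as those of a D cyclin and of the kinases that D cyclins bind. Capitals mark matches, on either strand, to motifs of factors that act in these cells or on these genes: TTTNNCGC for E2F, GAGGAAG for SPI1, AGATAA for the GATA factors, TGGGAA for RBPJ, CTTTGA for TCF/LEF and CACGTG for the E-box bound by MYC.
Ccnd3, first start, chr17:47504801-47505100, plus strand: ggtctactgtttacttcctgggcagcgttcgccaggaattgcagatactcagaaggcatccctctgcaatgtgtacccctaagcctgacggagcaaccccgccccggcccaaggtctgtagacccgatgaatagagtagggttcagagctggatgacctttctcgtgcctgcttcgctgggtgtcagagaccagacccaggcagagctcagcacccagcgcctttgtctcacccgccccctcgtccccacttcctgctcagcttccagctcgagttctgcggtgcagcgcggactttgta
Ccnd3, second start, chr17:47593217-47593516, plus strand: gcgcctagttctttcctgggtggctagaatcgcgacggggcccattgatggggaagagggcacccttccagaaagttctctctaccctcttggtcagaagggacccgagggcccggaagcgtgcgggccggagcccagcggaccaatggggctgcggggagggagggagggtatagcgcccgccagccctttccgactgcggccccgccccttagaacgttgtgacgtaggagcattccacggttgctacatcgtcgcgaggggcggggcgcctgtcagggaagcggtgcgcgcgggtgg
Cdk6, chr5:3343643-3343942, plus strand: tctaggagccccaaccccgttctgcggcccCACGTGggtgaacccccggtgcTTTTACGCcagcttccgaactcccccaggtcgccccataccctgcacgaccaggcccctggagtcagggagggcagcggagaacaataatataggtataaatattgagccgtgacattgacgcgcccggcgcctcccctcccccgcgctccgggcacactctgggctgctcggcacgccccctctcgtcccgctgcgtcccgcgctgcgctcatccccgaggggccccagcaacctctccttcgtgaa
Cdk4, chr10:127063285-127063584, plus strand: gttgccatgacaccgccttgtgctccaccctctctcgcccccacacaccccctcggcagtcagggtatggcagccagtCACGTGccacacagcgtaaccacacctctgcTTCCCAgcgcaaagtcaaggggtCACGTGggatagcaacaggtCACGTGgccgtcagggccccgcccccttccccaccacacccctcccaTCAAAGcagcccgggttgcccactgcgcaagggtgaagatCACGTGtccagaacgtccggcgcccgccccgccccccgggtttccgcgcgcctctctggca
The Cdk4 window held 4 E-boxes, at -172, -118, -98 and -11 from the start, with an RBPJ match at -141 and a TCF/LEF match at -51. The Cdk6 window held 1 E-box at -220 and 1 E2F match at -198. Neither window of Ccnd3 held any of the 6 motifs. Of all 32851 promoters of this length, 7.15% held the E-box, 5.17% the E2F motif, 13.6% the SPI1 motif, 11.2% the GATA motif, 25.6% the RBPJ motif and 16.0% the TCF/LEF motif. Among the other genes, the second start of Cdkn2c held an SPI1 match and an E-box and Cdkn2d held an RBPJ match. A match describes letters in the window and is not a binding site.

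Per kilobase of merged exons, Cdk4 was the most abundant of the 10 genes in each group by its mean, with 147 ± 33.4 CPM per kb (SD, n = 4) in TgSpi1FA+/+ preleukaemic mice of model 1. In these mice it was followed by Cdk6 (64.0 ± 36.4 CPM per kb), Ccnd3 (28.03 ± 7.87), Rb1 (27.6 ± 7.06), Cdkn2d (20.8 ± 4.71), Cdkn2c (15.4 ± 3.69), Cdkn1b (12.5 ± 3.27), Cdkn2b (6.44 ± 0.681) and Cdkn1c (0.277 ± 0.266, all SD, n = 4), while Ccnd1 had no count. Neighbours in this order differed by less than the larger of their SDs for Cdk6 and Ccnd3, for Ccnd3 and Rb1, for Rb1 and Cdkn2d, and for Cdkn2c and Cdkn1b. In TgSpi1FA-/- leukaemic mice the order changed: Cdk4 (190 ± 5.09 CPM per kb) was followed by Ccnd3 (37.8 ± 11.2) and Cdkn2d (22.1 ± 2.04), and Cdk6 (6.90 ± 7.55) stood close to Cdkn2c (7.84 ± 3.35) and Cdkn2b (6.50 ± 4.18, all SD, n = 3). Rb1 (11.3 ± 2.37) and Cdkn1b (11.3 ± 1.19, SD, n = 3) were at the same level there. In TgSpi1FA-/- preleukaemic mice Cdk4 (151 ± 0.612 CPM per kb) was followed by Cdk6 (39.5 ± 7.78) and Rb1 (29.4 ± 5.50, SD, n = 3), and in the preleukaemic mice of model 2 by Ccnd3 (29.6 ± 8.83), Cdkn2d (25.3 ± 24.9), Rb1 (22.7 ± 4.75) and Cdk6 (20.8 ± 13.4, SD, n = 4), which differed by less than their spread. In the leukaemic mice of model 2 Cdk4 (191 ± 23.9 CPM per kb) was followed by Cdkn1b (24.4 ± 9.93) and Cdkn2d (23.4 ± 8.92), while Rb1 (13.9 ± 0.800), Cdk6 (13.5 ± 5.34) and Ccnd3 (10.8 ± 2.20, SD, n = 3) stood lower.

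**Figure D1:**
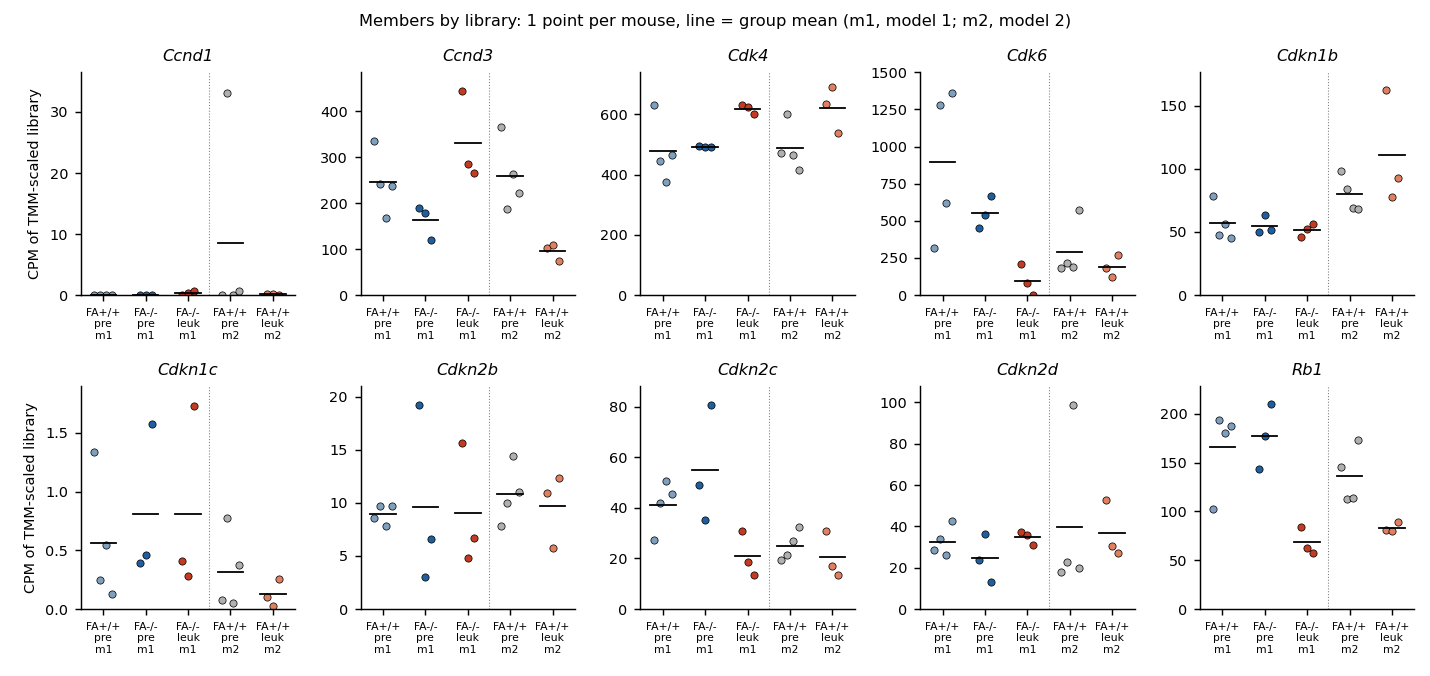
Level of each of the 10 genes in the 17 libraries, in CPM on linear axes that start at 0 (pre, preleukaemic; leuk, leukaemic; m1 and m2, models 1 and 2). Each point is 1 mouse and each line a group mean. Rb1 and Cdk6 lie lower in TgSpi1FA-/- leukaemic mice than in every preleukaemic mouse of model 1, Ccnd3 lies higher in leukaemic than in preleukaemic TgSpi1FA-/- mice of model 1 and lower in leukaemic than in preleukaemic mice of model 2, and Ccnd1 stands out in preleukemic_663 alone.

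Changes were tested with edgeR's quasi-likelihood test, with p-values adjusted over all genes tested (Benjamini-Hochberg). A gene was called at an adjusted p under 0.05 and a change of at least 1.5-fold. Such p-values measure the spread between these mice. A filter on low counts left 9 of the 10 genes in model 1 (Ccnd1 was dropped) and 9 in model 2 (Cdkn1c was dropped). Between TgSpi1FA-/- leukaemic and TgSpi1FA-/- preleukaemic cells, 3 of the 9 genes were called, with Ccnd3 increased and Rb1 and Cdkn2c repressed, against 13.3% of all 13393 genes tested (6.82% called higher and 6.49% called lower). Groups did not overlap for 5 of the 9 (these 3, Cdk4 and Cdk6), against 38.7% of all genes, and 3 of the 9 had an unadjusted p under 0.05, against 32.4% of all genes. The median log2 fold change of the 9 was -0.09, against -0.00 for all genes. Against TgSpi1FA+/+ preleukaemic cells, the same TgSpi1FA-/- leukaemic libraries had 1 gene called, Rb1, where 7.01% of all genes were called (3.55% higher and 3.46% lower), and 2 without overlap, Rb1 and Cdk6, where 25.7% of all genes did not overlap. There, 4 of the 9 genes had an unadjusted p under 0.05, against 27.2% of all genes. Between the preleukaemic cells of both genotypes, edgeR's quasi-likelihood test called 0 of the 9 genes (0.00747% of all genes were called), with 0 of 9 at an unadjusted p under 0.05 (8.65% of all genes). DESeq2 also called 0 of them, and called 256 of all 13680 genes to which it gave an adjusted p. In model 2, 0 of the 9 genes and 0% of all 12970 genes were called. There, 2 of the 9 genes, Ccnd3 and Rb1, had an unadjusted p under 0.05 (19.9% of all genes) and did not overlap (20.1% of all genes). DESeq2's Wald test called 1 of them, Ccnd3, and called 470 of all 13619 genes to which it gave an adjusted p. The difference of the leukaemic change between models was called for 1 of the 10 genes, Ccnd3, against 4.61% of the 14597 genes tested (2.76% higher and 1.85% lower).

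**Figure D2:**
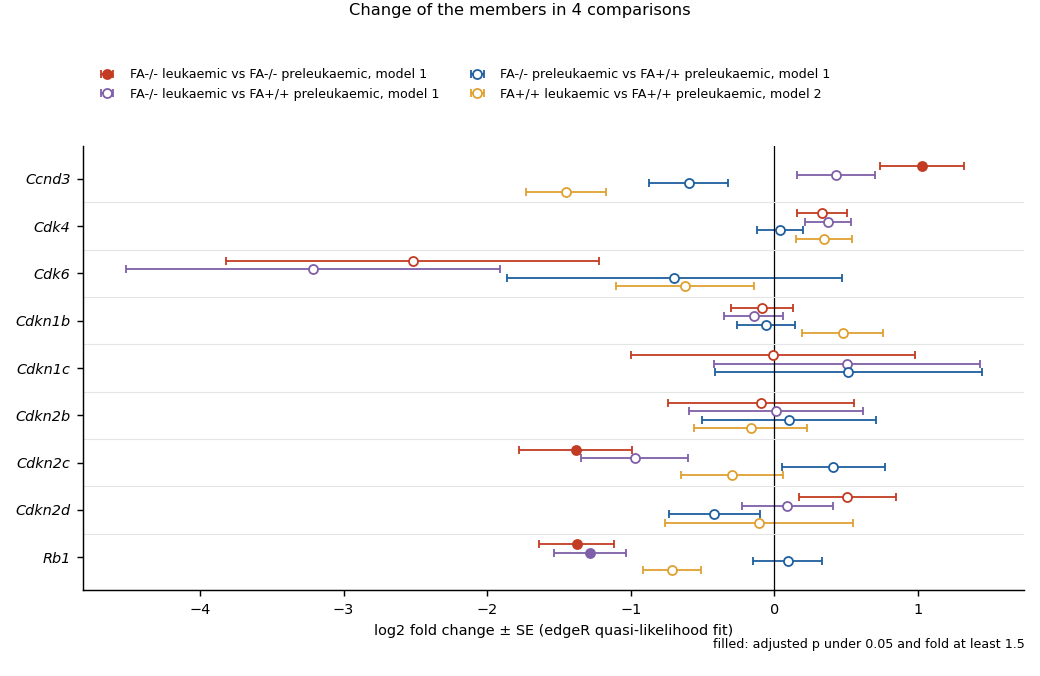
Log2 fold change of 9 of the genes with its standard error (horizontal bars) in 4 comparisons from edgeR's quasi-likelihood fit. Filled points passed an adjusted p under 0.05 with a change of at least 1.5-fold. Rb1, Cdkn2c and Ccnd3 are filled for leukaemic against preleukaemic TgSpi1FA-/- cells, Rb1 also against TgSpi1FA+/+ preleukaemic cells, and no point is filled for model 2, where Cdkn1c could not be fitted.

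Ccnd3 (ENSMUSG00000034165, GRCm38 chromosome 17 from 47505051 to 47599691), encoding the cyclin D that erythroid cells depend on most, had log2 fold changes of opposite sign in the leukaemia models. In model 1 the TgSpi1FA-/- preleukaemic libraries preleukemic_40, preleukemic_77 and preleukemic_224 held 190, 179 and 119 CPM, and the leukaemic libraries leukemic_26, leukemic_28 and leukemic_39 held 444, 286 and 266 CPM. The mice of model 2 showed the reverse, with 366, 187, 265 and 222 CPM in preleukemic_633, preleukemic_663, preleukemic_812 and preleukemic_837 before leukaemia, and 102, 110 and 73.3 CPM in the leukaemic mice leukemic_601, leukemic_606 and leukemic_921. Every TgSpi1FA-/- leukaemic mouse was above every TgSpi1FA-/- preleukaemic mouse, and every leukaemic mouse of model 2 was below every preleukaemic one. The log2 fold change was 1.03 (SE 0.30, adjusted p = 0.0479 by edgeR's quasi-likelihood test) in model 1. This call was lost without any 1 of the 6 mice, with log2 fold changes of 0.77 to 1.19 and adjusted p between 0.0639 and 0.139. In model 2 the log2 fold change was -1.45 (SE 0.28, unadjusted p = 0.000897, adjusted p = 0.162), which did not pass the adjusted threshold in edgeR but passed in DESeq2's Wald test (adjusted p = 0.00607). The change in model 1 exceeded that in model 2 by 2.47 on the log2 scale (SE 0.41, adjusted p = 0.0285 by edgeR's interaction test). Without 1 of the mice preleukemic_77, preleukemic_224, leukemic_28, leukemic_39 or leukemic_921 the adjusted p of this difference passed 0.05, up to 0.0770, with values of 2.20 to 2.61 over all 13 mice left out in turn.

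The TgSpi1FA+/+ preleukaemic mice of model 1 lay between, with 336, 242, 167 and 238 CPM of Ccnd3 in preleukemic_138, preleukemic_445, preleukemic_451 and preleukemic_479. They overlapped with the leukaemic mice (log2 fold change of leukaemic against these 0.43, SE 0.27, adjusted p = 0.338), and with the TgSpi1FA-/- preleukaemic mice (-0.60, SE 0.28, adjusted p = 0.588, edgeR). Only the comparison within TgSpi1FA-/- cells of model 1 therefore called Ccnd3 among the 3 comparisons of that model. Exons of Bysl lie opposite those of Ccnd3, with 4288 to 5662 counts in model 1, and a setting for strand in the counting is not given in the sources used here. The pseudogene Ccnd3-ps had at most 10 counts in a library.

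Ccnd1 (ENSMUSG00000070348, GRCm38 chromosome 7 from 144929931 to 144939925), the D cyclin most often amplified in solid tumours, was nearly silent. It had 0 counts in the 7 preleukaemic mice of model 1 and in leukemic_26, which allows up to 0.0832 to 0.1001 CPM (3 counts, counting error only), and 15 and 24 counts (0.383 and 0.609 CPM) in leukemic_28 and leukemic_39. These groups could not be told apart by an exact permutation test (two-sided p = 0.4 against TgSpi1FA-/- preleukaemic, smallest possible 0.1; p = 0.286 against TgSpi1FA+/+ preleukaemic, smallest possible 0.0571). Without leukemic_26, Ccnd1 passed the filter and was called in both comparisons (adjusted p = 0.0493 and 0.0452, edgeR's quasi-likelihood test). Counts in model 2 were 1, 1327, 0 and 26 counts in preleukemic_633, preleukemic_663, preleukemic_812 and preleukemic_837, and 10, 4 and 0 counts in leukemic_601, leukemic_606 and leukemic_921. A single preleukaemic library, preleukemic_663, thus held 33.2 CPM, 51.6 times the next highest of all 17 libraries, preleukemic_837 with 0.643 CPM. The fitted log2 fold change in model 2, -6.10 (SE 2.90, adjusted p = 0.286, edgeR), rests on that library. Lto1, which overlaps the exons of Ccnd1 on the other strand, had 621 to 865 counts in every library of model 1, where Ccnd1 had at most 24. Of the genes beside Ccnd1, Fgf3 had 5.48, 375 and 482 CPM in leukemic_26, leukemic_28 and leukemic_39, at most 3.29 CPM in the other libraries of model 1, and 0.0250 CPM in preleukemic_663, the library highest in Ccnd1. In model 1 the libraries with Ccnd1 counts, leukemic_28 and leukemic_39, were those with the most Fgf3 (looked at after the values were seen). A further count table of some of these mice did not show this split. Ccnd1 had 0, 21 and 2 counts there in leukemic_26, leukemic_28 and leukemic_39. It had 4, 3, 9 and 0 counts there in preleukemic_138, preleukemic_445, preleukemic_451 and preleukemic_479.

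Ccnd2, the other D cyclin, is not one of the 10 genes. Its levels were 122, 202, 15.0 and 134 CPM in preleukemic_138, preleukemic_445, preleukemic_451 and preleukemic_479, 582, 0 and 365 CPM in preleukemic_40, preleukemic_77 and preleukemic_224, and 244, 527 and 447 CPM in leukemic_26, leukemic_28 and leukemic_39. The levels in model 2 were 340, 0.400, 32.4 and 153 CPM in the preleukaemic and 154, 270 and 193 CPM in the leukaemic mice. It was present in all 6 leukaemic libraries and ranged from 0 to 582 CPM in the preleukaemic ones. Ccnd2 was called in none of the comparisons by edgeR (log2 fold change 0.36 within TgSpi1FA-/- cells and 0.65 in model 2). The TgSpi1FA-/- leukaemic mice (244 to 527 CPM) did lie above all TgSpi1FA+/+ preleukaemic mice of model 1 (15.0 to 202 CPM). In that comparison 25.7% of all genes did not overlap. The 2 libraries lowest in Ccnd2 were preleukemic_77, in which Ccnd3 made up 100% of the D cyclin signal per kb, and preleukemic_663, the one library with Ccnd1, in which Ccnd1 made up 24.8% and Ccnd3 75.1%.

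Over the D cyclins as a whole, Ccnd3 made up 56.3% to 92.3% of the CPM per kb in TgSpi1FA+/+ preleukaemic mice of model 1, 25.9% to 100% in TgSpi1FA-/- preleukaemic mice, and 36.7% to 66.1% in TgSpi1FA-/- leukaemic mice. Its share in model 2 was 53.6% to 89.7% before and 28.9% to 41.4% in leukaemia, without overlap. The sum of all D cyclins was 76.6 to 88.7 CPM per kb in the TgSpi1FA-/- leukaemic mice, 20.4 to 83.5 in TgSpi1FA-/- preleukaemic mice and 20.7 to 51.2 in TgSpi1FA+/+ preleukaemic mice. In model 2 the sum was 28.4 to 77.9 CPM per kb in preleukaemic and 28.1 to 41.3 in leukaemic mice. These shares and sums were not tested, and they depend on the count table: in the further table of 7 mice, Ccnd3 made up 96.2% to 99.9% in preleukemic_138, preleukemic_445, preleukemic_451 and preleukemic_479 and 36.1% to 74.3% in leukemic_26, leukemic_28 and leukemic_39, since Ccnd2 had at most 7.62 CPM there in the preleukaemic mice.

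**Figure D3:**
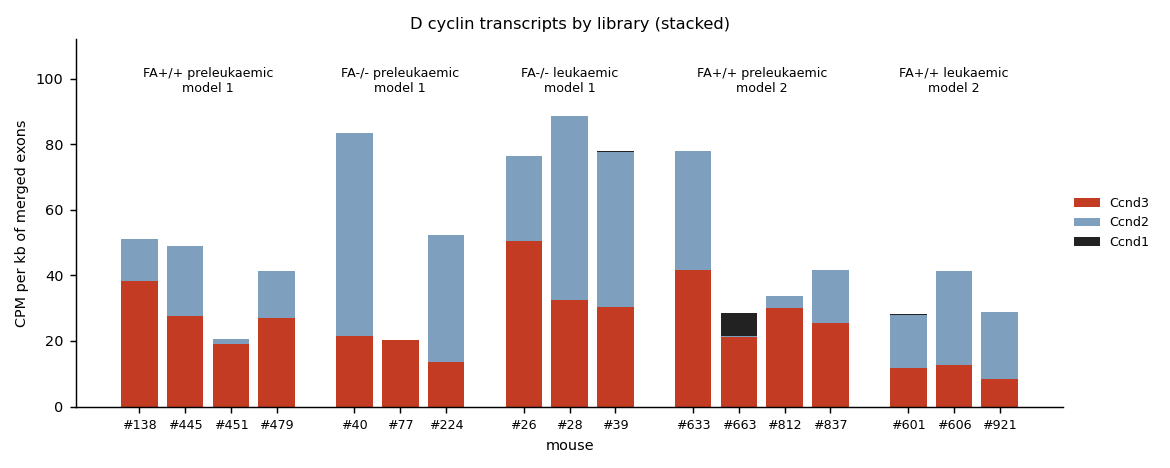
D cyclin transcripts in each of the 17 libraries, in CPM per kb of merged exons, as stacked bars of Ccnd3 (red), Ccnd2 (blue) and Ccnd1 (black). Ccnd3 is found in every library, Ccnd2 is missing from preleukemic_77 and nearly so from preleukemic_663, and Ccnd1 is visible in preleukemic_663, with faint traces in the other libraries that hold it.

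Cdk4 (ENSMUSG00000006728, chromosome 10 from 127063534 to 127067920), a kinase partner of all D cyclins, had group means of 478 to 620.3 CPM. It had 494, 490 and 492 CPM in preleukemic_40, preleukemic_77 and preleukemic_224 and 631, 626 and 600 CPM in leukemic_26, leukemic_28 and leukemic_39, without overlap. The levels of preleukemic_138, preleukemic_445, preleukemic_451 and preleukemic_479 were 631, 443, 375 and 464 CPM, so that preleukemic_138 was as high as the leukaemic mice. The log2 fold changes in leukaemia were 0.33 (SE 0.17, adjusted p = 0.211) within TgSpi1FA-/- cells, 0.37 (SE 0.16, adjusted p = 0.171) against TgSpi1FA+/+ preleukaemic cells and 0.35 (SE 0.20, adjusted p = 0.360, edgeR) in model 2, and none was called. In model 2 the preleukaemic mice had 471, 602, 463 and 416 CPM and the leukaemic mice 635, 690 and 536 CPM, which overlapped through preleukemic_663. The difference between the models was -0.03 (SE 0.25). Exons of Tspan31 lie opposite those of Cdk4, with 2028 to 4549 counts in model 1.

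Cdk6 (ENSMUSG00000040274, chromosome 5 from 3341485 to 3531008), the kinase that holds erythroid and other haematopoietic progenitors in cycle, was lower in each TgSpi1FA-/- leukaemic mouse than in any preleukaemic mouse of model 1, but by very different amounts. It had 318, 1282, 620 and 1363 CPM in preleukemic_138, preleukemic_445, preleukemic_451 and preleukemic_479, and 452, 537 and 668 CPM in preleukemic_40, preleukemic_77 and preleukemic_224. The leukaemic mice had 210 CPM in leukemic_26, 79.4 CPM in leukemic_28 and 0.558 CPM (22 counts) in leukemic_39. Levels in the leukaemic mice thus spanned 376-fold. The log2 fold changes were -2.52 (SE 1.30, adjusted p = 0.210) against TgSpi1FA-/- preleukaemic and -3.21 (SE 1.30, adjusted p = 0.150, edgeR's quasi-likelihood test) against TgSpi1FA+/+ preleukaemic cells. Neither was called by edgeR, whereas DESeq2 called the second (adjusted p = 0.0227). In that comparison DESeq2 called 2245 of all 15159 genes to which it gave an adjusted p. Without leukemic_39 they were -1.91 (SE 0.66) and -2.61 (SE 0.67) and still not called. In model 2 Cdk6 had 183, 219, 189 and 571 CPM in preleukaemic mice, with preleukemic_837 far above the rest, and 179, 119 and 268 CPM in leukaemic mice (log2 fold change -0.62, SE 0.48, adjusted p = 0.505, edgeR).

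Spi1 followed the same order in the leukaemic mice. It had 630, 220 and 3.88 CPM in leukemic_26, leukemic_28 and leukemic_39, against 467 to 1061 CPM in the 7 preleukaemic mice of model 1. The erythroid marker Hbb-bs, an adult beta globin gene, had 991, 222 and 0.837 CPM in leukemic_26, leukemic_28 and leukemic_39, while Gata1 had 344, 389 and 347 CPM in them. The library leukemic_39 therefore lacked Cdk6, Spi1 and Hbb-bs and kept Gata1, and in bulk RNA fewer cells with a transcript and less transcript per cell cannot be told apart. The part of these genes in the Cdk6 result was not tested.

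Around Cdk6, the genes within 2 Mb were looked at after the high values of preleukemic_445 and preleukemic_479 had been seen. Of 17 neighbours past the filter, 14 had their 2 highest libraries in preleukemic_445 and preleukemic_479. The median of the neighbours against the median library was 1.405 in preleukemic_445 and 1.38 in preleukemic_479 on the log2 scale, and between -0.39 and 0.08 in the other 8 libraries of model 1. It was -0.07 in leukemic_39, where Cdk6 itself was nearly absent. In the further count table of 7 of these mice, the same neighbours stood at -0.08 in preleukemic_445 and 0.32 in preleukemic_479, and Cdk6 had 577 and 520 CPM there, with 409 and 1079 CPM in preleukemic_138 and preleukemic_451. In that table leukemic_26, leukemic_28 and leukemic_39 had 424, 128 and 1.12 CPM, so that leukemic_26 overlapped with the preleukaemic mice (log2 fold change -1.81, SE 1.30).

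**Figure D4:**
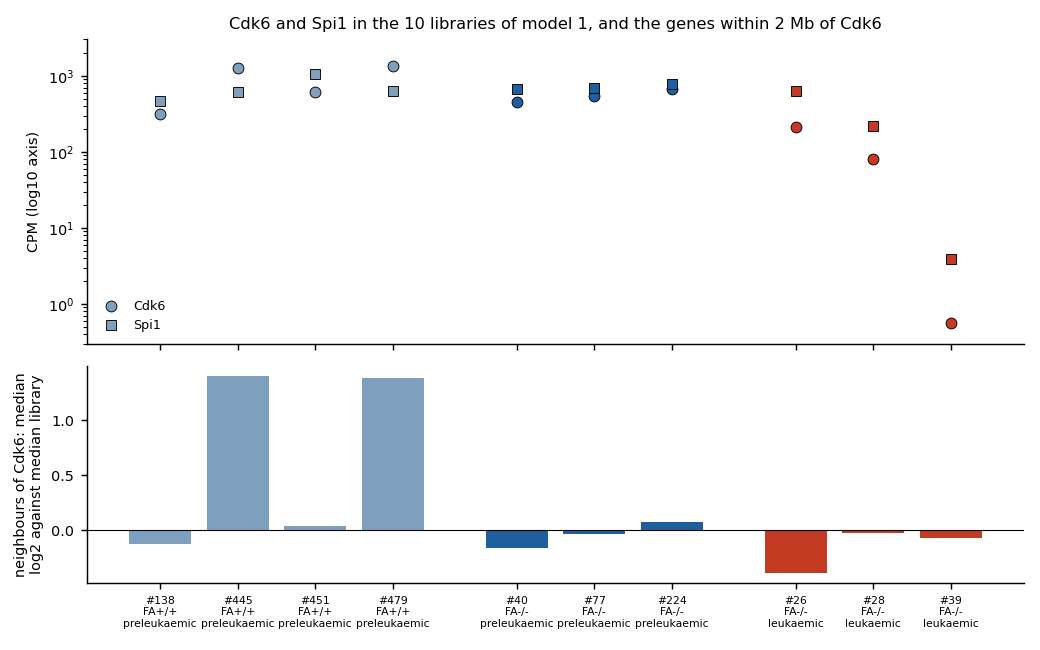
Upper panel: CPM of Cdk6 (circles) and Spi1 (squares) in the 10 libraries of model 1 on a log10 axis. Lower panel: the median, over 17 neighbours of Cdk6, of the log2 level against the median library; bars above 0.08 occur in preleukemic_445 and preleukemic_479 alone, while both genes fall to their lowest level in leukemic_39.

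Cdk6 made up 10.5% to 40.5% of the CPM per kb of Cdk4 and Cdk6 together in TgSpi1FA+/+ preleukaemic mice of model 1, 17.5% to 24.0% in TgSpi1FA-/- preleukaemic mice and 0.0216% to 7.17% in TgSpi1FA-/- leukaemic mice. The share in model 2 was 7.77% to 24.2% in preleukaemic and 3.86% to 10.4% in leukaemic mice. Cdk4 was thus the larger share in all 17 libraries.

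Of the INK4 inhibitors, Cdkn2c (ENSMUSG00000028551, chromosome 4 from 109660876 to 109667189; p18, which rises as erythroid cells leave the cycle) was the one called. It had 49.1, 35.1 and 80.7 CPM in preleukemic_40, preleukemic_77 and preleukemic_224 and 31.0, 18.6 and 13.5 CPM in leukemic_26, leukemic_28 and leukemic_39. Every leukaemic mouse was below every TgSpi1FA-/- preleukaemic mouse, though leukemic_26 was close to preleukemic_77. The log2 fold change was -1.38 (SE 0.39, adjusted p = 0.0468, edgeR's quasi-likelihood test). It lost its call without preleukemic_40, preleukemic_77, preleukemic_224, leukemic_28 or leukemic_39 (adjusted p = 0.0543 to 0.157), and kept it without leukemic_26 (adjusted p = 0.0246). Against the TgSpi1FA+/+ preleukaemic mice, which had 27.4, 41.9, 50.5 and 45.4 CPM, it was -0.97 (SE 0.37, adjusted p = 0.130), with leukemic_26 above preleukemic_138. In model 2 the groups overlapped, with 19.4, 21.4, 26.95 and 32.3 CPM in preleukaemic and 30.8, 17.1 and 13.5 CPM in leukaemic mice (-0.29, SE 0.36, adjusted p = 0.681, edgeR). The difference between models was -1.10 (SE 0.53, adjusted p = 0.211) and was not called. Of the genes beside it, Faf1 had a log2 fold change of -0.40 (SE 0.19) and Rnf11 one of -1.12 (SE 0.42, adjusted p = 0.101) within TgSpi1FA-/- cells, and neither was called.

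Cdkn2d (p19) and Cdkn2b (p15) overlapped between the groups of every comparison. Cdkn2d had 23.9, 36.2 and 13.3 CPM in TgSpi1FA-/- preleukaemic and 37.4, 35.9 and 31.2 CPM in TgSpi1FA-/- leukaemic mice (log2 fold change 0.51, SE 0.34, adjusted p = 0.328). In model 2 one preleukaemic library, preleukemic_812, had 98.6 CPM, against 17.8 to 22.8 CPM in the others and 27.1 to 53.0 CPM in the leukaemic mice. Without preleukemic_812 the log2 fold change in model 2 was 0.89 in place of -0.11, and the call stayed absent (adjusted p = 0.149, edgeR). Cdkn2b was low, at 3.02 to 19.2 CPM over all 17 libraries, with the lowest and the highest value both among the 3 TgSpi1FA-/- preleukaemic mice (preleukemic_77 and preleukemic_40). Its log2 fold change was -0.09 (SE 0.65) within TgSpi1FA-/- cells and -0.16 (SE 0.39, edgeR) in model 2. These values leave wide intervals and do not show that either gene was unchanged.

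Of the CIP/KIP inhibitors, Cdkn1b (p27, which holds resting cells out of the cycle) had 45.5 to 78.0 CPM in the 10 mice of model 1 and 68.3 to 162 CPM in the 7 of model 2. Its log2 fold change was -0.09 (SE 0.22, adjusted p = 0.820) within TgSpi1FA-/- cells and 0.48 (SE 0.28, adjusted p = 0.382, edgeR) in model 2, where leukemic_601 had 162 CPM and leukemic_606 and leukemic_921 had 77.4 and 93.0 CPM. Cdkn1c (p57, an imprinted gene) was at the limit of detection, with 0.0254 to 1.72 CPM and at most 68 counts in a library. It had a log2 fold change of -0.01 (SE 0.99) within TgSpi1FA-/- cells, and in model 2, below the filter, an exact permutation test gave a two-sided p = 0.4 (smallest possible 0.0571). With so few counts and a wide spread between mice (4 to 47 counts in the TgSpi1FA+/+ preleukaemic mice of model 1), a change in Cdkn1c was not detected.

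Rb1 (ENSMUSG00000022105, chromosome 14 from 73183673 to 73325822), the pocket protein that holds E2F factors until CDK4 and CDK6 phosphorylate it, was lower in the leukaemic mice of both models. It had 144, 177 and 210 CPM in preleukemic_40, preleukemic_77 and preleukemic_224 and 103, 194, 181 and 187 CPM in preleukemic_138, preleukemic_445, preleukemic_451 and preleukemic_479, against 84.5, 62.5 and 57.6 CPM in the TgSpi1FA-/- leukaemic mice leukemic_26, leukemic_28 and leukemic_39. In model 2 it had 145, 113, 114 and 173 CPM in preleukaemic and 81.3, 79.9 and 88.8 CPM in leukaemic mice. Within each model, all 3 leukaemic mice were below all preleukaemic mice. The log2 fold change was -1.38 (SE 0.26, adjusted p = 0.0159) within TgSpi1FA-/- cells and -1.28 (SE 0.25, adjusted p = 0.0229, edgeR) against TgSpi1FA+/+ preleukaemic cells, which share the leukaemic libraries. In model 2 it was -0.71 (SE 0.20, unadjusted p = 0.00817, adjusted p = 0.162, edgeR) and was not called. The difference between models, -0.69 (SE 0.33, adjusted p = 0.207), was not called either. Between the preleukaemic genotypes it was 0.09 (SE 0.24, adjusted p = 0.950).

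The Rb1 call within TgSpi1FA-/- cells was lost without preleukemic_224 (adjusted p = 0.0604), leukemic_28 (0.0646) or leukemic_39 (0.0529), with log2 fold changes of -1.55 to -1.22 over the 6 mice left out in turn (edgeR's quasi-likelihood test). The call against TgSpi1FA+/+ preleukaemic cells was lost without preleukemic_445, preleukemic_479, preleukemic_451, leukemic_28 or leukemic_39 (adjusted p up to 0.101). It was also lost when preleukemic_445 and preleukemic_479 were summed into 1 library (-1.21, adjusted p = 0.0669). Exons of Rcbtb2 and Lpar6 lie opposite those of Rb1, with at most 1603 and 167 counts in model 1, where Rb1 had at least 2272.

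The other pocket protein genes, a list of 2, were both called within TgSpi1FA-/- cells and against TgSpi1FA+/+ preleukaemic cells, where 13.3% and 7.01% of all genes were called. Rbl2, encoding p130, which takes E2F sites in resting cells, had 71.6, 72.6 and 108 CPM in preleukemic_40, preleukemic_77 and preleukemic_224 and 18.03, 10.6 and 9.49 CPM in leukemic_26, leukemic_28 and leukemic_39. The 4 libraries preleukemic_138, preleukemic_445, preleukemic_451 and preleukemic_479 held 34.8, 59.8, 97.0 and 65.0 CPM. The leukaemic mice were below all 7 preleukaemic mice, with log2 fold changes of -2.73 (SE 0.40, adjusted p = 0.00769) and -2.34 (SE 0.38, adjusted p = 0.0153, edgeR). The first was called without any 1 of the 6 mice (adjusted p up to 0.0417), while the second was lost without 4 of 7 and in the further count table (-1.58, adjusted p = 0.173). In model 2 Rbl2 had 23.1, 41.9, 45.3 and 81.4 CPM in preleukaemic and 44.1, 45.8 and 46.5 CPM in leukaemic mice (-0.07, SE 0.38). The difference between models was -2.66 (SE 0.57, adjusted p = 0.0311, edgeR's interaction test) and was lost without 8 of the 13 mice.

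Rbl1, encoding p107, which is itself an E2F target, had 143, 121 and 149 CPM in preleukemic_40, preleukemic_77 and preleukemic_224 and 91.0, 78.0 and 90.1 CPM in leukemic_26, leukemic_28 and leukemic_39. The log2 fold changes were -0.67 (SE 0.16, adjusted p = 0.0280) within TgSpi1FA-/- cells and -0.68 (SE 0.15, adjusted p = 0.0333) against TgSpi1FA+/+ preleukaemic cells, and 0.69 (SE 0.31, adjusted p = 0.269, edgeR) in model 2. These calls were lost without 4 of 6 and 5 of 7 mice. The difference between models was -1.36 (SE 0.36, adjusted p = 0.0457, edgeR's interaction test) and was lost without 9 of the 13 mice. Rb1, Rbl1 and Rbl2 thus all fell in TgSpi1FA-/- leukaemic cells. In model 2 none of the 3 was called, where 0% of all 12970 genes were called, and Rb1 was lower there too, without overlap.

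**Figure D5:**
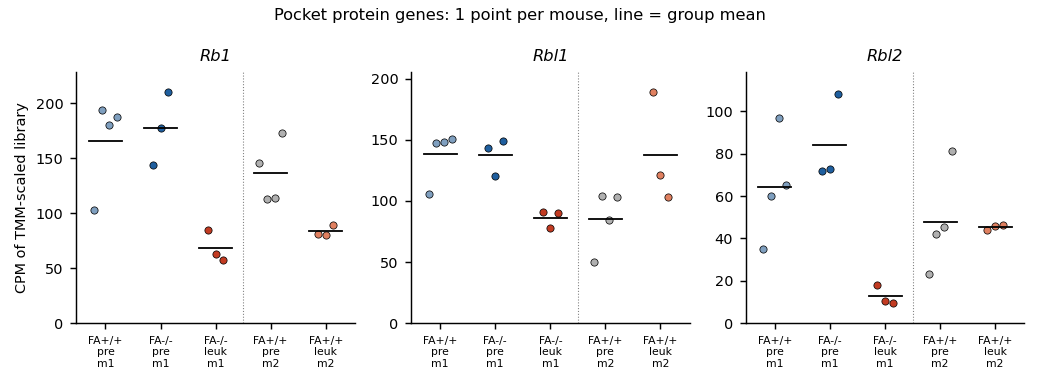
CPM of the pocket protein genes Rb1, Rbl1 and Rbl2 by group, on linear axes from 0, with 1 point per mouse and a line at each group mean (pre, preleukaemic; leuk, leukaemic; m1 and m2, models 1 and 2). In model 1 the 3 TgSpi1FA-/- leukaemic mice lie below all 7 preleukaemic mice for each gene, and in model 2 only Rb1 separates both groups.

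The genes around this pathway were described by lists of 47 further G1/S genes, all of which passed the filters. Within TgSpi1FA-/- cells 3 of the 47 rose and 4 fell (14.9%, against 13.3% of all genes), with a median log2 fold change of -0.04 against -0.00 for all genes. Against TgSpi1FA+/+ preleukaemic cells 1 rose and 4 fell (10.6%, against 7.01% of all genes), between the preleukaemic genotypes and in model 2 none was called by edgeR's quasi-likelihood test (2 and 12 of the 47 had an unadjusted p under 0.05, against 8.65% and 19.9% of all genes), and 2 differed between models, the pocket protein genes. Of 10 E2F and DP genes, E2f5, an E2F that acts mainly as a repressor with pocket proteins, rose by 1.27 (SE 0.24, adjusted p = 0.0158) and E2f8, an atypical repressor that opposes other E2Fs, fell by 1.03 (SE 0.24, adjusted p = 0.0269) within TgSpi1FA-/- cells on the log2 scale. Both were also called against TgSpi1FA+/+ preleukaemic cells (1.12 and -1.048). Of 8 genes of cyclin E, cyclin A and CDK2 with their activators, Mnat1, a subunit of the CDK-activating kinase, rose (0.69, SE 0.16, adjusted p = 0.0254). Of 8 genes for the turnover of p27 and cyclins, Skp2, which marks p27 for degradation, rose (1.1404, SE 0.28, adjusted p = 0.0303, edgeR).

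Of 10 E2F target genes, 1 fell within TgSpi1FA-/- cells, Rrm2 (-1.11, SE 0.30, adjusted p = 0.0415), and 1 fell against TgSpi1FA+/+ preleukaemic cells, Rrm1 (-0.59, SE 0.10, adjusted p = 0.0152, edgeR), both encoding subunits of ribonucleotide reductase. None of 6 proliferation markers (Mki67, Top2a, Ccnb1, Cdk1, Bub1 and Plk1) was called in any comparison by edgeR, and within TgSpi1FA-/- cells 0 of the 6 had an unadjusted p under 0.05. Of 3 other D cyclin and inhibitor genes (Ccnd2, Cdkn1a and Cdkn2a), none was called in any comparison. Each of these single-gene calls was lost when some mice were left out, from 1 of 6 for E2f5 to 5 of 6 for Mnat1, Skp2 and Rrm2 within TgSpi1FA-/- cells.

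For the 3 genes called, the most similar patterns over the 10 libraries of model 1 were sought among 13393 genes by Pearson's r of log2 CPM. This is a description with no test, since these libraries differ in group and, with it, in depth. Those closest to Rb1 were Myl6 (a myosin light chain, r = 0.985), Cda (cytidine deaminase, r = 0.984) and Zmiz2 (r = 0.983). Those closest to Cdkn2c were Clock (a circadian transcription factor, r = 0.971), Rex1bd (r = 0.968) and Ankrd13a (r = 0.968), and those closest to Ccnd3 were Plekhg3 (r = 0.968), Myadm (r = 0.951) and Psat1 (an enzyme of serine synthesis, r = 0.934).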

How the data were processed

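RNA-seq of 17 libraries was used, 10 of model 1 and 7 of model 2. The authors deposited raw counts of reads per Ensembl gene, without normalization, in whole numbers, and a second file with the same values for model 2 was left aside. The submitters' processing notes name bcl2fastq 2.17.1.14, STAR 2.5.3a and HTSeq 0.6.1p1, with no parameters, and the strand setting and filters are not given in the sources used here. A further deposited count table of 7 mice of model 1 (35497594 to 171572736 counts per library) served as an alternative.

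The 10 genes and all lists were chosen with earlier results of these data known. Counts were filtered with filterByExpr, scaled by TMM and tested with the quasi-likelihood functions of edgeR 4.0.16 (R 4.3.3), in 1 fit of the 3 groups of model 1 and 1 fit of model 2. An interaction was fitted over all 17 libraries and the genes shared by both tables. Adjusted p are Benjamini-Hochberg values over all genes tested, and those with no other tool named come from edgeR. Genes were called at an adjusted p under 0.05 and a change of at least 1.5-fold. DESeq2 1.42.0 was an alternative. Genes below the filter were compared by exact permutation tests of CPM (scipy 1.17.1). The tests were checked on simulated counts. The text names the 10 genes, the listed G1/S genes called in any of the 4 group comparisons and, for up to 3 genes called, the 3 most alike; Spi1, Fgf3, Hbb-bs, Gata1 and the neighbours of Cdk6 were chosen after values were seen. Positions and merged exon lengths came from GENCODE M21 (GRCm38, the build the processing notes name), which held 99.8% of the identifiers of model 1 and 99.9% of those of model 2.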

Additional observations from a re-analysis of the deposited data

Results flagged for a closer look

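Within groups of 4 mice, 19 were looked at and 4 held a library far from the rest, where chance gives about 1 in 20 for normally distributed values. The rule was applied to CPM, which need not be so distributed. The share of all genes that it flags is not given here, so 4 of 19 does not show an excess in these genes. Among the TgSpi1FA+/+ preleukaemic mice of model 2, the gap to the nearest mouse was 0.981 of the group's range for Ccnd1 in preleukemic_663, 0.909 for Cdk6 in preleukemic_837 and 0.938 for Cdkn2d in preleukemic_812, each the highest. Among the TgSpi1FA+/+ preleukaemic mice of model 1 it was 0.856 for Rb1 in preleukemic_138, the lowest, with the nearly alike preleukemic_445 and preleukemic_479 counted as 2 of the 4. Each exceeds Dixon's 95% limit for 4 samples. These are 4 genes in 4 different mice.

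Ccnd3 had log2 fold changes of opposite sign in the leukaemia models, of which that in model 2 was not called by edgeR, and the difference of 2.47 on the log2 scale passed edgeR's interaction test. Model, strain, genotype and library protocol cannot be told apart in it, and the leukaemic mice do not all share a driver mutation.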

How the results depend on the processing

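Of 697 values of the 10 genes under other settings, 622 kept their direction and their side of the threshold, 31 lost a call, 3 gained one and 41 changed sign. Most of the 697 belong to results that had no call to lose. With a mouse left out, calls within TgSpi1FA-/- cells were lost in 6 of 6 fits for Ccnd3, 5 of 6 for Cdkn2c and 3 of 6 for Rb1. The Rb1 call against TgSpi1FA+/+ preleukaemic cells was lost in 5 of 7, and the Ccnd3 difference between models in 5 of 13. A further 2 values had no adjusted p from DESeq2 and are not among the 697. Within TgSpi1FA-/- cells, the 3 calls became 1 without the filter and 1 when the fit held the compared groups alone. Against TgSpi1FA+/+ preleukaemic cells, the 1 call became 2 with DESeq2, 0 with preleukemic_445 and preleukemic_479 summed and 0 in the further count table. In model 2, DESeq2 called 1 where edgeR called 0. With each mouse left out in turn, the number of genes called was 0 to 3 within TgSpi1FA-/- cells, 0 to 3 against TgSpi1FA+/+ preleukaemic cells, 0 to 1 for the difference between models, and 0 between the preleukaemic genotypes and in model 2. Both counts of 3 came without leukemic_26 and include Ccnd1, which passed the filter there and was called (adjusted p = 0.0493 and 0.0452, edgeR's quasi-likelihood test) on 15 and 24 counts against 0, beside Rb1 and Cdkn2c. The number was 0 within TgSpi1FA-/- cells without preleukemic_224, leukemic_28 or leukemic_39 and 1 without preleukemic_40 or preleukemic_77. Cdkn2c lost its call with DESeq2's size factors in edgeR (adjusted p = 0.0524), without the filter (0.0586) and with the compared groups alone (0.101), as did Ccnd3 without the filter (0.0543) and with the compared groups alone (0.0628).

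Over all genes, the calls within TgSpi1FA-/- cells went from 1782 to 3099 with DESeq2 and from 414 to 2319 with a mouse left out. Against TgSpi1FA+/+ preleukaemic cells they went from 939 to 2245 with DESeq2, 122 with preleukemic_445 and preleukemic_479 summed, 267 in the further table and 53 to 1911 with a mouse left out. In model 2 they went from 0 to 470 with DESeq2, between the preleukaemic genotypes from 1 to 256 with DESeq2 and 4 without the filter, and for the difference between models from 673 to 2037 with DESeq2 and 279 without the filter. With a mouse left out, the count for the difference between models fell to 1 (without leukemic_28), 2 (without leukemic_39), 4 (without preleukemic_77 or preleukemic_224) and 8 (without leukemic_921), and reached 1359 without preleukemic_812. The causes were not tested.

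Cdkn1c, near 0 within TgSpi1FA-/- cells, turned sign to 0.049 with DESeq2's size factors, 0.0092 without the filter, 0.015 with a filter of 1 CPM in 3 libraries, 0.045 with DESeq2 and 0.028 with the compared groups alone, and the difference of Cdk4 between models turned to 0.034 with DESeq2's size factors and 0.034 with DESeq2. With a mouse left out, values that changed sign ranged as follows on the log2 scale, none of them called: Rb1 -0.0783 to 0.22 between the preleukaemic genotypes; Cdk4 -0.0692 to 0.20 between the preleukaemic genotypes and -0.15 to 0.0635 for the difference between models; Cdkn1b -0.16 to 0.0426 within TgSpi1FA-/- cells, -0.18 to 0.13 between the preleukaemic genotypes and -0.24 to 0.0497 against TgSpi1FA+/+ preleukaemic cells; Cdkn1c -1.20 to 0.93 within TgSpi1FA-/- cells, -0.42 to 1.39 between the preleukaemic genotypes and -0.68 to 1.39 against TgSpi1FA+/+ preleukaemic cells; Cdkn2b -0.74 to 0.90 within TgSpi1FA-/- cells, -0.90 to 0.52 between the preleukaemic genotypes, -0.65 to 0.34 against TgSpi1FA+/+ preleukaemic cells, -0.38 to 0.10 in model 2 and -0.58 to 1.052 for the difference between models; Cdkn2d -0.47 to 0.89 in model 2 and -0.37 to 1.034 for the difference between models. Mouse numbers are not shared between groups. No paired analysis was possible because the groups compared share no replicate numbers.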

Other observations

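The further count table of 7 mice of model 1 gave other levels for some D cyclin transcripts of the same mice. Ccnd2 had 6.86, 0.262, 5.10 and 7.62 CPM there in preleukemic_138, preleukemic_445, preleukemic_451 and preleukemic_479, against 122, 202, 15.0 and 134 CPM in the table used for the tests, and 166, 467 and 299 CPM in leukemic_26, leukemic_28 and leukemic_39. Rb1 had 91.1, 217, 130 and 172 CPM in the preleukaemic and 81.1, 55.6 and 53.3 CPM in the leukaemic mice, again without overlap. Ccnd3 had 600, 292, 201 and 180 CPM in the preleukaemic and 448, 361 and 157 CPM in the leukaemic mice, which overlapped. Ccnd1 had 4, 3, 9 and 0 counts in the preleukaemic and 0, 21 and 2 counts in the leukaemic mice, in the same order. How the libraries of this table relate to those of the other is not given in the sources used here.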
